A study of Mus musculus with 30 samples.

Results

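The MCM genes Mcm2, Mcm3, Mcm4, Mcm5, Mcm6 and Mcm7 encode the subunits of the ring-shaped helicase that unwinds DNA during replication. They were taken by name and not by a rule on their measured values, though earlier results of these data were known. All 6 were present among the 11463 genes tested, read by 7 probes of the 20896 on the array. RNA was taken from the inguinal mammary glands of mice of the 129sv background at 19 weeks of age, with 1 array per sample. There were 9 samples from Her2/Neu+/IFNAR1-/- mice, which carry the oncogene and lack a chain of the type I interferon receptor, 6 from Her2/Neu+ mice with the receptor, 8 from IFNAR1-/- mice without the oncogene, and 7 from WT mice with neither change. The labels give neither the promoter that drives the oncogene nor the state of the glands, such as tumours or lactation. Each sample was hybridised together with the same universal mouse reference RNA, and each value is a log2 ratio of gland over reference. The question of the series is the role of the body's own type I interferon in tumour formation by this oncogene.

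The subunits form a ring of 1 copy each, which is loaded onto DNA at replication origins before S phase by the origin recognition complex with CDC6 and CDT1. The ring is inert until the kinases CDK and DDK recruit CDC45 and the GINS complex, and the assembled helicase then travels with the fork. Mcm4, Mcm6 and Mcm7 encode the subunits of a core with helicase activity of its own, Mcm3 and Mcm5 form a pair, and Mcm2 with Mcm5 makes the gate through which DNA enters the ring. In the mouse assembly GRCm38.p6 Mcm2 lies on chromosome 6 at 88883474 to 88898780, Mcm3 on chromosome 1 at 20802966 to 20820312, Mcm4 on chromosome 16 at 15623897 to 15637400, Mcm5 on chromosome 8 at 75109468 to 75128439, Mcm6 on chromosome 1 at 128331575 to 128359705 and Mcm7 on chromosome 5 at 138164583 to 138172111. The genes are classical targets of E2F transcription factors, and their proteins are used as markers of cells that are able to divide. In a whole gland, fewer cells of a type and less RNA per cell cannot be told apart.

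Sequences around the annotated starts were compared because the genes are textbook E2F targets and, as described further on, did not all vary together. Windows of 300 bases, from 250 before to 50 after an annotated start, were available from RefSeq (mouse assembly GRCm38.p6) for 5 of the 6 genes, in 6 windows, and were searched for the E2F-type letters TTTNNCGC on both strands. Mcm4 was not matched. The Mcm2 window, on chromosome 6, held no match, whereas the Mcm3 window held 2, the Mcm5 window 2 that overlap, the Mcm6 window 3, of which 2 overlap, and 1 of the 2 Mcm7 windows 2. Of all 32851 windows 5.17% held the letters, and of the 11282 windows of genes tested here 8.23%. A match is a run of letters and not a known binding site. Whether matches go with the expression of these genes was not tested. The stretches of Mcm2, Mcm5 and Mcm6 that lie before the gene, and the 30 bases of Mcm3 that hold both of its matches, are given 5′ to 3′ on the strand of the gene, with the matches in capitals. Mcm2 covers chr6:88898781-88899030 (minus strand), Mcm3 chr1:20820265-20820294 (minus), Mcm5 chr8:75109259-75109467 (plus) and Mcm6 chr1:128359706-128359955 (minus).
Mcm2: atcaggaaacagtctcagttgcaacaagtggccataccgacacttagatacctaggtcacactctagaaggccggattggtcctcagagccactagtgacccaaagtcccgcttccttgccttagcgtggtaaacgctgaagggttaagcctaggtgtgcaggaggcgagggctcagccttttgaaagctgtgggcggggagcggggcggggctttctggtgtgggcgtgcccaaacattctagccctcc
Mcm3: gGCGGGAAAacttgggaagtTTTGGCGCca
Mcm5: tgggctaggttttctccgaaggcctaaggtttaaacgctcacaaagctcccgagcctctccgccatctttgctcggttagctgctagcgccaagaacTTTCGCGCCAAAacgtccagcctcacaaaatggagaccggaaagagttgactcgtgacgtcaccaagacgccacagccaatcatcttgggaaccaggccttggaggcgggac
Mcm6: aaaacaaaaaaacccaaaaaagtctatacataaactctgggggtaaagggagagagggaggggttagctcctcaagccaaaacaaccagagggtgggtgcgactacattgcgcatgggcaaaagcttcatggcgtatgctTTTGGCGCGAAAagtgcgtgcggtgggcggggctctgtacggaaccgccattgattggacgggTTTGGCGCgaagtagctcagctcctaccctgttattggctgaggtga
Relative to the annotated start, the matches of Mcm6 begin at -110, -106 and -47, and those of Mcm5 at -153 and -149. Both matches of Mcm3 begin after the start, at 19 and 38, and those of Mcm7 begin at -165 and 16. The 250 bases before Mcm3 held no match, as for Mcm2, so these 2 genes differ only after the start. The capitals in Mcm5 and the first run of capitals in Mcm6 are each made of 2 overlapping matches, 1 on each strand.

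On the arrays, the 30 samples gave 17485 to 20801 values each, and pairs of arrays correlated at 0.353 to 0.863. Because the table has no intensities, it cannot be said how far a value lay above background. Precision depends on the spread of a gene between arrays and on how many arrays there were. Her2/Neu+ sample 114 stood apart, with a median correlation of 0.415 with its own group, the lowest of all arrays. Skeletal muscle genes were high on IFNAR1-/- samples 41, 42 and 44 and on Her2/Neu+/IFNAR1-/- sample 106, where the mean of 6 centred muscle genes was 3.71, 4.04, 4.43 and 3.50. Adipoq, an adipocyte hormone, was at the upper limit of 6 on all arrays, Krt18, a luminal keratin, averaged 0.50 ± 0.96 in Her2/Neu+/IFNAR1-/-, 0.54 ± 1.39 in Her2/Neu+, 0.49 ± 0.95 in IFNAR1-/- and 0.53 ± 0.54 in WT glands (SD), and its partner Krt8 averaged -0.44 ± 0.89 in Her2/Neu+/IFNAR1-/-, -0.91 ± 1.79 in Her2/Neu+, -0.44 ± 1.53 in IFNAR1-/- and -1.27 ± 1.05 in WT glands. Ratios near 0 do not show how much of a transcript a gland holds. The labels number separate samples without saying that they came from separate animals, so the spread behind each p-value may be technical. Ifnar1 averaged 1.04 ± 1.23 (SD, n = 8) in Her2/Neu+/IFNAR1-/- glands, 0.77 ± 1.45 (n = 6) in Her2/Neu+ glands, 0.20 ± 0.89 (n = 8) in glands of IFNAR1-/- mice and 0.42 ± 0.92 (n = 7) in those of WT mice. Mouse Erbb2 averaged 0.38 ± 0.45 in Her2/Neu+/IFNAR1-/-, 0.51 ± 0.40 in Her2/Neu+, 0.52 ± 0.63 in IFNAR1-/- and 0.19 ± 0.39 in WT glands. Where these probes lie relative to the deletion and the transgene is not given, so these levels check nothing about the genotypes.

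MCM transcripts were scarcer in the glands than in the reference RNA. Of the 180 values, 177 lay below 0, and they ran from -5.22 to 0.34. The 3 values above 0 all came from Her2/Neu+ sample 114. Every gene had a value on all 30 arrays, and none lay at the limit of ±6 where the deposited values stop. A ratio depends on how much of that transcript the reference holds, so levels are compared between groups for a gene and never between genes.

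**Figure D1:**
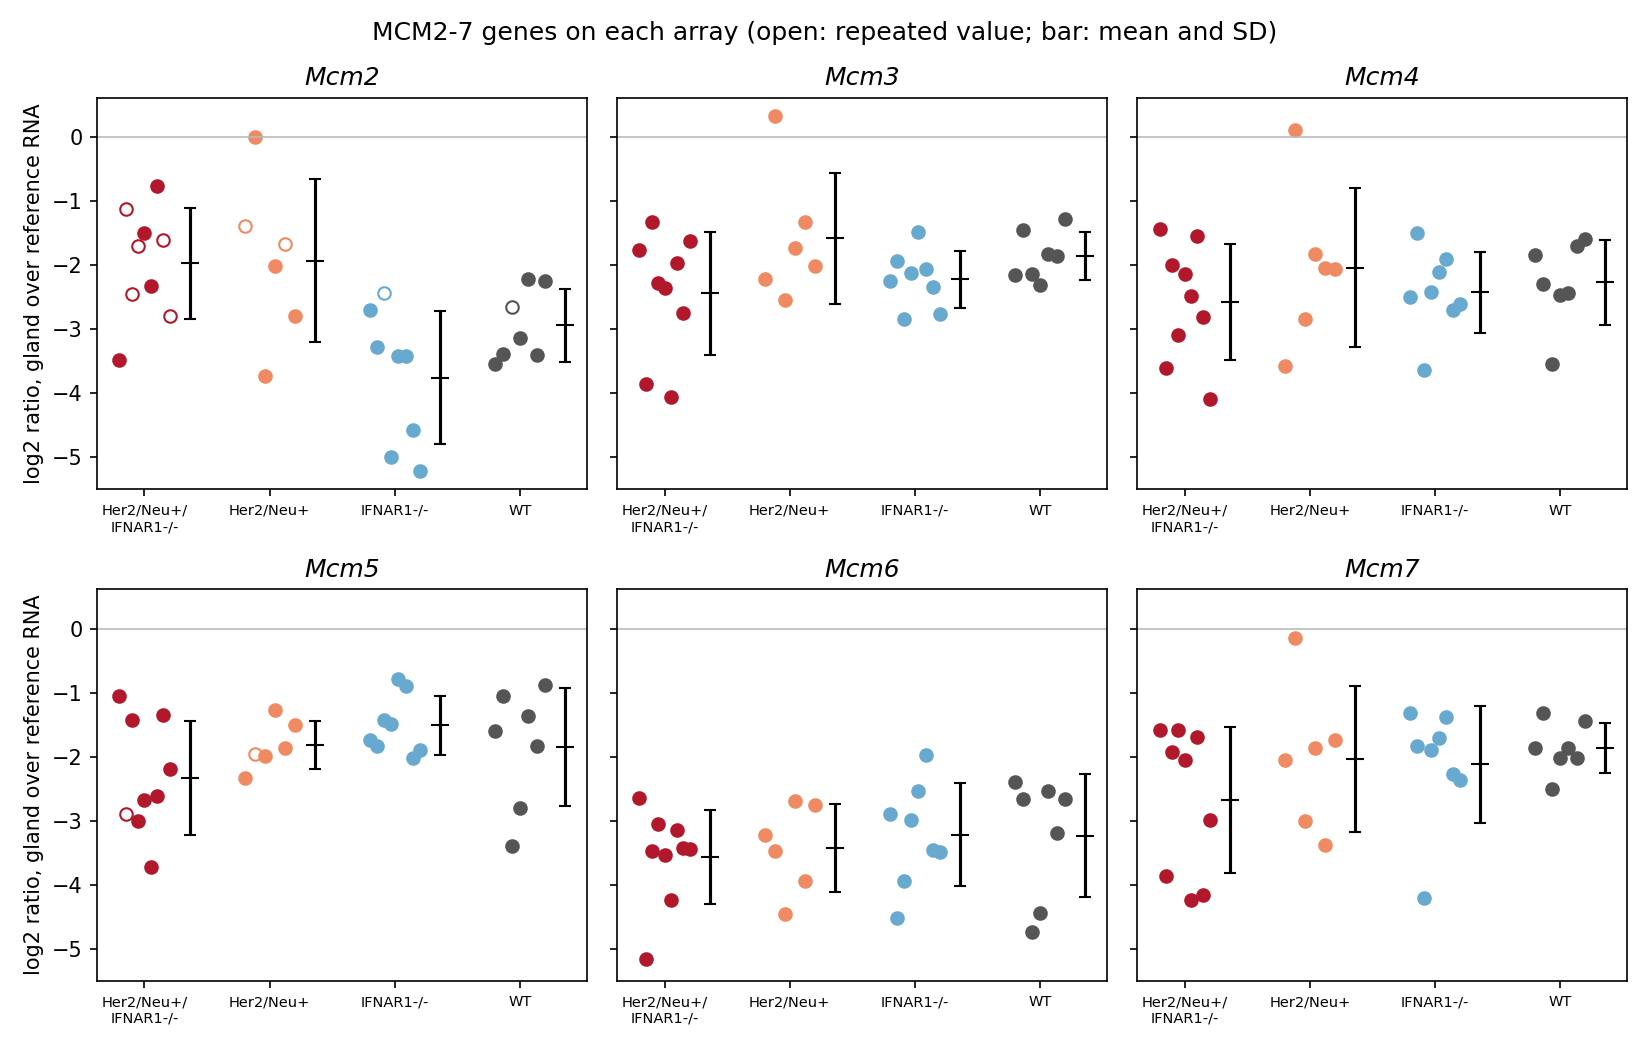
Log2 ratio of gland over reference (vertical axis) of each MCM gene, with 1 point per array in the 4 groups, the mean and SD beside each group, and open points for repeated values, defined with the Mcm2 results. For Mcm2 most Her2/Neu+/IFNAR1-/- and Her2/Neu+ points lie above most IFNAR1-/- and WT points, while the other 5 genes overlap between all groups, and Her2/Neu+ sample 114 is the highest point of Mcm2, Mcm3, Mcm4 and Mcm7.

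Mcm2, which encodes the subunit at the gate of the ring, was the 1 MCM gene called higher with the oncogene. It was not called in Her2/Neu+ against WT glands, nor under every treatment of arrays and values. Its log2 ratio in the 9 Her2/Neu+/IFNAR1-/- samples had a lowest value of -3.48, a median of -1.69 and a highest of -0.75. In the 6 Her2/Neu+ samples these were -3.73, -1.83 and 0.01, in the 8 IFNAR1-/- samples -5.22, -3.41 and -2.44, and in the 7 WT samples -3.55, -3.13 and -2.22. The groups overlapped, and 6 of the 9 Her2/Neu+/IFNAR1-/- samples lay above every IFNAR1-/- sample, while 4 of the 6 Her2/Neu+ samples lay above every WT sample. Means from high to low were -1.93 ± 1.27 in Her2/Neu+, -1.97 ± 0.86 in Her2/Neu+/IFNAR1-/-, -2.94 ± 0.56 in WT and -3.75 ± 1.04 in IFNAR1-/- glands (SD), and neighbours in this order overlapped.

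Averaged over both receptor states, the glands with the oncogene had 1.40 ± 0.34 (SE) more Mcm2 on the log2 scale than those without, a 2.64-fold rise with a limma adjusted p of 0.0268 over all genes and a 95% interval of 0.70 to 2.09. In this averaged contrast 2.57% of all genes were called, and 1.71% were called up. In Her2/Neu+/IFNAR1-/- against IFNAR1-/- glands Mcm2 rose by 1.78 ± 0.45, or 3.44-fold (limma adjusted p = 0.0424), where 1.31% of all genes were called and 0.942% of all genes were called up. In Her2/Neu+ against WT glands the change was 1.01 ± 0.51, with an interval of -0.04 to 2.06, and did not pass (limma adjusted p = 0.434). There 0 of 6 MCM genes passed, where 0.131% of all genes did, and 0 of 6 had an unadjusted p under 0.05, against 12.1% of all genes. The difference between these 2 effects was 0.77 ± 0.68 and did not pass either (adjusted p = 0.686), so Mcm2 is not shown to respond differently in the 2 receptor states. Without Her2/Neu+ sample 114 the averaged rise was 1.20 ± 0.32 (limma adjusted p = 0.0468) and the change in Her2/Neu+ against WT 0.63 ± 0.50 (adjusted p = 0.750).

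The Mcm2 call was sensitive to how arrays and values were treated. Leaving out each array in turn kept the averaged call in 30 of 30 fits, with changes of 1.20 to 1.58 and limma adjusted p-values of 0.00758 to 0.0497. The Her2/Neu+/IFNAR1-/- against IFNAR1-/- call was kept in 18 of 30, with changes of 1.57 to 1.97 and adjusted p-values of 0.0245 to 0.111. It was lost without Her2/Neu+/IFNAR1-/- sample 103, 105, 108, 109 or 110, IFNAR1-/- sample 44, 46, 47 or 50, or WT sample 53, 56 or 57. Block numbers in the labels fall into 8 runs in sample order, which are inferred and not stated to be slides. With these runs as a random block the averaged change was 1.38 ± 0.38 (adjusted p = 0.0815) and the Her2/Neu+/IFNAR1-/- against IFNAR1-/- change 1.75 ± 0.50 (adjusted p = 0.159). With them as a fixed block the averaged change was 1.01 ± 0.73 (adjusted p = 0.702).

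Only 2 runs hold both a group with and a group without the oncogene. In the first, Her2/Neu+/IFNAR1-/- sample 102 had -3.48, against -3.55, -3.39 and -2.22 in WT samples 53, 54 and 57, so the oncogene sample lay within the WT range. In the second, Her2/Neu+ samples 114 and 119 had 0.01 and -1.66, against -3.28 in IFNAR1-/- sample 41, so both oncogene samples lay above. Neither run holds both groups of a pairwise comparison, so for those comparisons run and group cannot be told apart.

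Many deposited values are repeated, meaning that another probe on that array has a value with the same digits. How they arose is not given in the sources used here. They made up 9 of the 30 Mcm2 values, against 33.9% of all values in the table and 2 values over the probes of the other 5 MCM genes, both of Mcm5. The repeated Mcm2 values numbered 5 of 9 in Her2/Neu+/IFNAR1-/-, 2 of 6 in Her2/Neu+, 1 of 8 in IFNAR1-/- and 1 of 7 in WT glands. Without them Mcm2 averaged -2.02 ± 1.17 (n = 4) in Her2/Neu+/IFNAR1-/-, -2.13 ± 1.59 (n = 4) in Her2/Neu+, -3.94 ± 0.97 (n = 7) in glands of IFNAR1-/- mice and -2.99 ± 0.60 (n = 6) in those of WT mice. The averaged change was then 1.39 ± 0.45 (limma adjusted p = 0.0870) and the Her2/Neu+/IFNAR1-/- against IFNAR1-/- change 1.93 ± 0.63 (adjusted p = 0.0750), so the sizes were close to those with all values and neither passed.

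**Figure D2:**
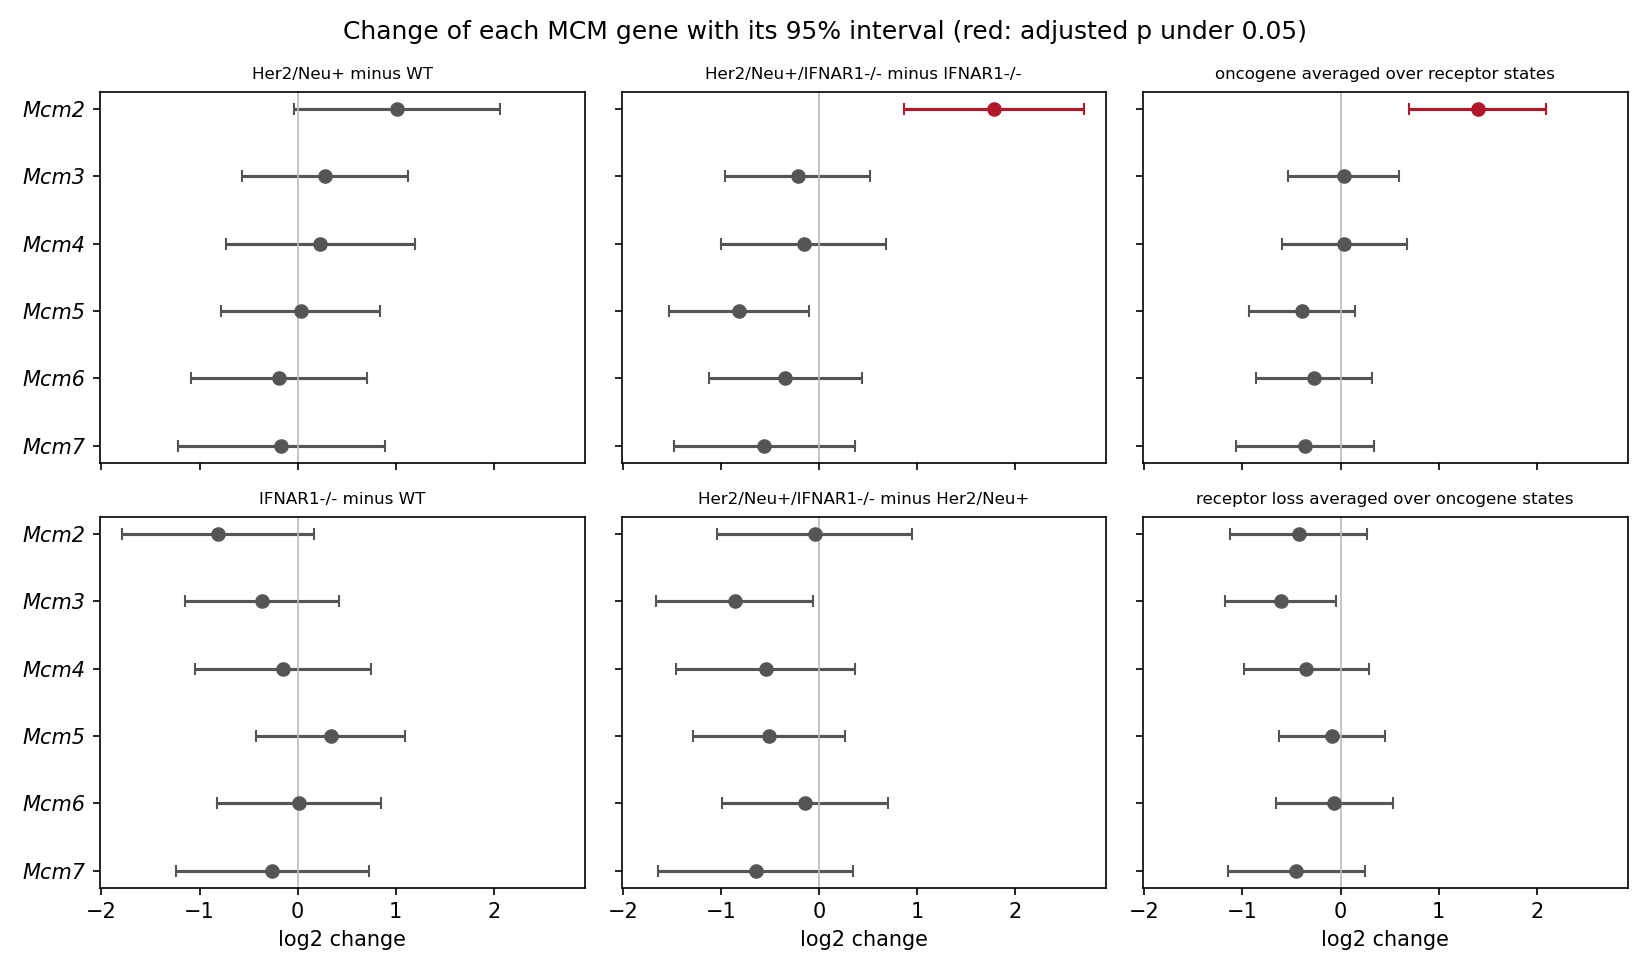
Log2 change of each MCM gene (points) with its 95% interval (bars) in 6 contrasts, in red where the limma adjusted p was under 0.05. Mcm2 is red at 1.78 in Her2/Neu+/IFNAR1-/- minus IFNAR1-/- and at 1.40 in the average over receptor states, and no other gene is red.

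The other members of the ring were not called with the oncogene. Mcm5, the partner of Mcm2 at the gate, had a lowest value of -3.73, a median of -2.61 and a highest of -1.06 in Her2/Neu+/IFNAR1-/- samples, and -2.34, -1.91 and -1.27 in Her2/Neu+ samples. The same 3 values were -2.02, -1.61 and -0.78 in IFNAR1-/- samples and -3.39, -1.60 and -0.89 in WT samples. The median Her2/Neu+/IFNAR1-/- sample lay below all IFNAR1-/- samples, but the 2 groups overlapped. The difference between them was -0.82 ± 0.35 with an interval of -1.53 to -0.10 (limma unadjusted p = 0.0260, adjusted p = 0.206), opposite in sign to that of Mcm2. Averaged over receptor states Mcm5 changed by -0.39 ± 0.26 (adjusted p = 0.434).

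Mcm3, which pairs with Mcm5 in the ring, averaged -2.44 ± 0.96 (SD) in Her2/Neu+/IFNAR1-/-, -1.58 ± 1.03 in Her2/Neu+, -2.22 ± 0.44 in IFNAR1-/- and -1.86 ± 0.38 in WT glands. Its lowest, median and highest values were -4.06, -2.27 and -1.32 in Her2/Neu+/IFNAR1-/- and -2.54, -1.87 and 0.34 in Her2/Neu+ samples. They were -2.84, -2.18 and -1.48 in IFNAR1-/- and -2.30, -1.85 and -1.28 in WT samples. The groups overlapped, with 2 Her2/Neu+/IFNAR1-/- samples lowest, at -4.06 and -3.85, and Her2/Neu+ sample 114 highest. The averaged oncogene change was 0.03 ± 0.27, with an interval of -0.53 to 0.59 (limma adjusted p = 0.966). The 2 probes of Mcm3, designed against different transcript records, correlated at r = 0.71 over the arrays and differed by up to 1.78 on 1 array. Without Her2/Neu+ sample 114 the averaged changes of Mcm3 and Mcm4 were -0.16 and -0.18, and in Her2/Neu+ against WT glands Mcm3, Mcm4 and Mcm7 differed by -0.11, -0.20 and -0.54.

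The 3 genes of the helicase core were also not called. Mcm4 had a lowest value of -4.09, a median of -2.48 and a highest of -1.44 in Her2/Neu+/IFNAR1-/-, and -3.57, -2.05 and 0.12 in Her2/Neu+ samples, against -3.64, -2.45 and -1.50 in IFNAR1-/- and -3.54, -2.30 and -1.59 in WT samples. All 4 groups covered much the same range. Its averaged oncogene change was 0.04 ± 0.31, with an interval of -0.60 to 0.68.

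Mcm6 had -5.16, -3.45 and -2.64 in Her2/Neu+/IFNAR1-/-, and -4.46, -3.35 and -2.69 in Her2/Neu+ samples as lowest, median and highest values. These were -4.52, -3.22 and -1.97 in IFNAR1-/- and -4.75, -2.66 and -2.40 in WT samples, and the groups overlapped. The averaged oncogene change was -0.27 ± 0.29, with an interval of -0.86 to 0.33. Mcm7 had -4.24, -2.06 and -1.58 in Her2/Neu+/IFNAR1-/- and -3.38, -1.96 and -0.14 in Her2/Neu+ samples. In IFNAR1-/- samples the values were -4.21, -1.87 and -1.32, and in WT samples -2.51, -1.87 and -1.32. The change of Mcm7 was -0.36 ± 0.34, with an interval of -1.06 to 0.34, and the 3 lowest Her2/Neu+/IFNAR1-/- samples were at -4.24, -4.17 and -3.87. In the averaged contrast a change as large as that of Mcm2, 1.40, lay outside the interval of each of the other 5 genes. With the runs of block numbers as a fixed block this separation was not seen: all 6 changes were above 0, at 1.01 ± 0.73 for Mcm2, 0.74 ± 0.59 for Mcm3, 0.65 ± 0.63 for Mcm4, 0.11 ± 0.53 for Mcm5, 0.35 ± 0.59 for Mcm6 and 0.09 ± 0.77 for Mcm7, and none passed in limma (smallest adjusted p = 0.702).

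The order of the group means differed between the genes. Her2/Neu+ glands had the highest mean of Mcm2, Mcm3 and Mcm4, IFNAR1-/- glands that of Mcm5 and Mcm6, and WT glands that of Mcm7. The 3 first places of Her2/Neu+ glands rested on sample 114. Without it their means were -2.31 ± 0.95 for Mcm2, below Her2/Neu+/IFNAR1-/- glands, -1.96 ± 0.47 for Mcm3, below WT glands, and -2.47 ± 0.72 for Mcm4, below IFNAR1-/- and WT glands (SD, n = 5). Her2/Neu+/IFNAR1-/- glands had the lowest mean of all genes but Mcm2, where IFNAR1-/- glands were lowest. In no pairwise comparison of the design did the groups separate without overlap for any MCM gene. Of all genes 0.532% did so in Her2/Neu+ against WT, 0.236% in Her2/Neu+/IFNAR1-/- against IFNAR1-/-, 0.236% in IFNAR1-/- against WT and 0.131% in Her2/Neu+/IFNAR1-/- against Her2/Neu+ glands. Neighbours in each order overlapped.

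Loss of the receptor changed no MCM gene past the threshold. In IFNAR1-/- against WT glands 0 of 6 passed, where 0.0262% of all genes did, and 0 of 6 had an unadjusted p under 0.05, against 6.87% of all genes. Mcm2 had the largest difference there, -0.81 ± 0.48 (limma adjusted p = 0.783). In Her2/Neu+/IFNAR1-/- against Her2/Neu+ glands 0 of 6 passed, where 0.0785% of all genes did, and 1 of 6 had an unadjusted p under 0.05, against 11.2%. All 6 changes were below 0 there, while 59.1% of all genes were above 0, and the median was -0.53 against 0.11 over all genes. Without Her2/Neu+ sample 114 5 of 6 were below 0 and the median was -0.21. The smallest p was that of Mcm3, -0.86 ± 0.39 (limma unadjusted p = 0.0365, adjusted p = 0.419), and without Her2/Neu+ sample 114 it was -0.47 (adjusted p = 0.650). Mcm2 differed by -0.04 ± 0.49 in that comparison (limma adjusted p = 0.981), and by 0.34 without Her2/Neu+ sample 114. Averaged over oncogene states 0 of 6 passed (0.0698% of all genes) and 1 of 6 had an unadjusted p under 0.05 (8.62% of all genes), with Mcm3 at -0.61 ± 0.27 (adjusted p = 0.538). No interaction passed (0 of 6, against 0.0174% of all genes) and 0 of 6 had an unadjusted p under 0.05 (9.62% of all genes), the smallest p being that of Mcm5 with -0.84 ± 0.53 (adjusted p = 0.578).

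Within the groups, the correlations of Mcm2 with the other members were lower than those among the others. Of the 30 Mcm2 values 9 were repeated values, against 2 over the probes of the other 5 genes. The correlations were not computed without the repeated values, so their part in this difference was not tested. With group means subtracted, the 10 pairs without Mcm2 had Pearson's r between 0.27 and 0.71 over the 30 arrays, with a median of 0.52. Of these, 7 passed a permutation test with 100000 resamples, adjusted over all 15 pairs (largest adjusted p among them 0.0320), and 6 passed by Spearman's rho. Mcm3 with Mcm7 was closest (r = 0.71, rho = 0.68, permutation adjusted p = 0.000225), then Mcm5 with Mcm6 (r = 0.68, rho = 0.67), Mcm4 with Mcm7 (r = 0.63), Mcm3 with Mcm4 (r = 0.58) and Mcm6 with Mcm7 (r = 0.56). The 5 pairs with Mcm2 had r between -0.11 and 0.22 and none passed (smallest permutation adjusted p = 0.347). Without the 2 arrays farthest from the median of the lower-numbered gene of each pair, 8 of the 10 pairs passed, with r between 0.10 and 0.61. Without Her2/Neu+ sample 114 9 of the 10 passed, with r between 0.31 and 0.68. No pair with Mcm2 passed in either case. The runs of block numbers hold 3 or 4 arrays each, too few for a correlation within a run, and all genes of an array share its hybridisation. Pairs of other genes were not tested in this way, and arrays were permuted without regard to run. It cannot be said whether these counts are particular to the MCM genes.

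**Figure D3:**
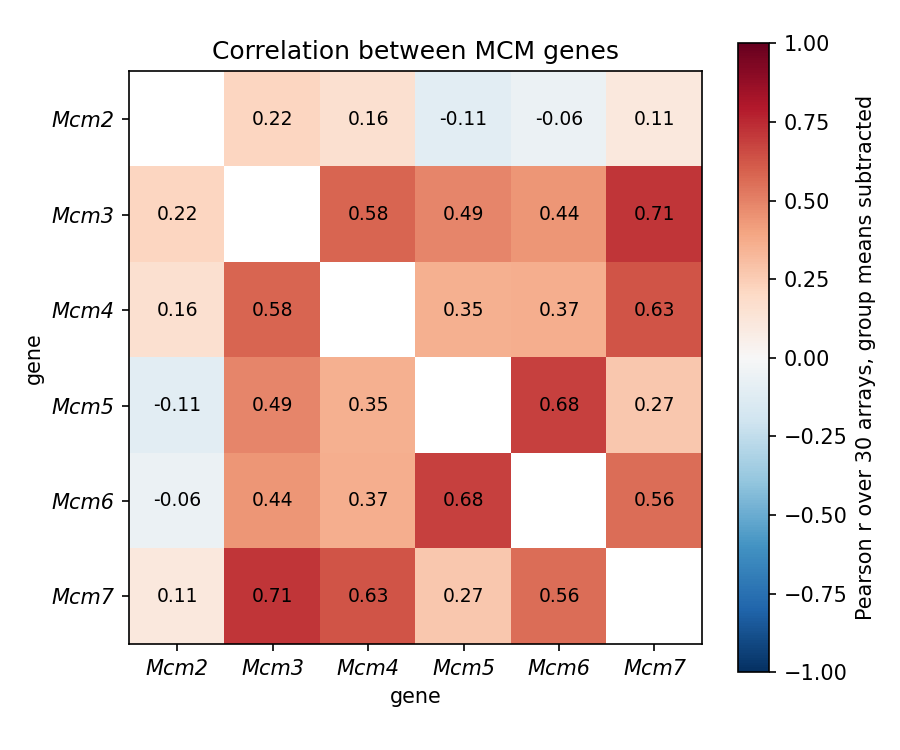
Pearson's r between each pair of MCM genes over the 30 arrays after subtracting group means, from blue (negative) through white to red (positive). The row and column of Mcm2 are pale, between -0.11 and 0.22, and the other cells run from 0.27 to 0.71.

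Individual arrays differed in whether Mcm2 went with the other genes. Her2/Neu+/IFNAR1-/- sample 103 had the lowest Mcm6 of its group, -5.16, and values of -3.85 for Mcm3, -3.61 for Mcm4 and -3.87 for Mcm7, but its Mcm2, -1.12, was the second highest of its group and a repeated value. Her2/Neu+/IFNAR1-/- sample 102 had the lowest Mcm2 of its group, -3.48, and its highest Mcm4, Mcm5, Mcm6 and Mcm7. In contrast, Her2/Neu+ sample 114 had the highest Mcm2, Mcm3, Mcm4 and Mcm7 of all arrays, and Her2/Neu+ sample 115 had the lowest Mcm2, Mcm3 and Mcm6 of its group, at -3.73, -2.54 and -4.46. Over the 30 arrays the r of a gene with the mean of the other 5 was -0.04 for Mcm2, and 0.76 for Mcm3, 0.65 for Mcm7, 0.64 for Mcm4, 0.51 for Mcm6 and 0.38 for Mcm5. For Mcm2 it was 0.09 with group means subtracted and -0.25 without Her2/Neu+ sample 114, while for the other genes it was 0.49 to 0.67 without that sample.

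Among 8297 genes with values on all arrays, those most like the mean of the MCM genes over the 30 arrays were Nup210 (r = 0.83), H2bc18 (0.79), Rpl34 (0.78), Tcof1 (0.78), Chd3 (0.78), Lig1 (0.77), Apobec1 (0.76) and Khdrbs1 (0.76). Lig1 encodes the ligase that joins Okazaki fragments, Nup210 a nuclear pore protein and H2bc18 a histone. The median r over the 8297 genes was -0.05, and the 5th to 95th percentiles ran from -0.49 to 0.44. With group means subtracted 3 of these 8 genes stayed among the 8 most alike, and without Her2/Neu+ sample 114 it was 4. By list, the median r was 0.36 for deoxynucleotide synthesis, 0.28 for mitotic and proliferation markers, 0.20 for fork factors, 0.03 for helicase activation, -0.06 for E2F and pocket proteins and -0.08 for origin recognition and loading. Lists spread widely around these medians. Among mitotic markers Mki67, a marker of dividing cells, was highest at 0.75, while Cdk1 and Nusap1 were at -0.02 each, and among loading genes Cdt1 was highest at 0.69.

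The other genes of the replication machinery were set beside the MCM genes by function, from lists that were drawn up with earlier results of these data known. Of the origin recognition and loading genes, 12 of 13 were measured and 0 passed in Her2/Neu+/IFNAR1-/- against IFNAR1-/- or in the averaged oncogene contrast, with 4 and 2 of 12 higher at an unadjusted limma p under 0.05. Over all genes 13.5% were higher at that p in the pairwise and 11.3% in the averaged contrast. The smallest p-values were those of Gmnn, the inhibitor of Cdt1, at 1.92 ± 0.59 (limma adjusted p = 0.0866) in the pairwise contrast, and of Mcm10, which acts with the helicase at its activation, at 1.14 ± 0.34 (adjusted p = 0.0654) in the average. The list had a median change of 0.30 in the pairwise contrast against 0.15 over all genes and -0.28 over the MCM genes, and in the average 0.07 against 0.07 over all genes and -0.12 over the MCM genes.

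Helicase activation genes (12 of 14 measured) and fork polymerases and accessory factors (30 of 34) also had 0 past the limma threshold in both contrasts. At an unadjusted p under 0.05, 5 and 4 of 12 activation genes and 6 and 7 of 30 fork genes were higher in the pairwise and the averaged contrast, against 13.5% and 11.3% of all genes. Their medians in Her2/Neu+/IFNAR1-/- against IFNAR1-/- glands were 0.67 and 0.22. Over the alternatives other than leaving out 1 array these ran from 0.43 to 0.91 and from -0.07 to 0.35. Recql4, a helicase needed to start replication, had 2.27 ± 0.65 (limma adjusted p = 0.0716), and Timeless, of the fork protection complex, 0.89 ± 0.27 (adjusted p = 0.0830). Of 9 genes of deoxynucleotide synthesis 8 were measured and 0 passed in limma (1 and 3 of 8 higher at an unadjusted p under 0.05, against 13.5% and 11.3% of all genes), the smallest p in the average being that of Tk1, thymidine kinase, at 0.42 ± 0.19 (adjusted p = 0.222).

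All 17 listed E2F and pocket protein regulators were measured. In Her2/Neu+/IFNAR1-/- against IFNAR1-/- glands 2 rose and 0 fell, where 0.942% of all genes were called up. E2f8, a repressing E2F factor, rose by 2.39 ± 0.61, and E2f2, an activating one, by 0.92 ± 0.24 (limma adjusted p = 0.0436 for each). E2f2 averaged -1.21 ± 0.53 (SD) in Her2/Neu+/IFNAR1-/-, -1.09 ± 0.34 in Her2/Neu+, -2.13 ± 0.45 in IFNAR1-/- and -1.53 ± 0.50 in WT glands. In the averaged contrast, where 1.71% of all genes were called up, 1 rose, E2f2 by 0.68 ± 0.18 (limma adjusted p = 0.0413). It did not pass without Her2/Neu+ sample 114, at 0.62 (limma adjusted p = 0.0675). On leaving out each array E2f8 and E2f2 passed in 14 and 12 of 30 fits in the pairwise contrast, and E2f2 in 12 of 30 in the average. Under the other alternatives the pairwise change of E2f8 ran from 0.71 to 2.63 and passed in 9 of 15 (largest limma adjusted p = 0.828). That of E2f2 ran from 0.70 to 0.97 and passed in 7 of 16. With the runs of block numbers as a random block, and without IFNAR1-/- samples 41, 42 and 44, the count was 0 in both contrasts.

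Of the mitotic and proliferation markers 17 of 19 were measured. In the averaged contrast 4 rose and 0 fell, where 1.71% of all genes were called up. The median change of the list was 0.88 against 0.07 over all genes and -0.12 over the MCM genes. Nusap1, a spindle protein, rose by 1.47 ± 0.35 (limma adjusted p = 0.0256), Tpx2, a spindle assembly factor, by 1.64 ± 0.42 (adjusted p = 0.0331), Birc5, or survivin, by 1.03 ± 0.27 (adjusted p = 0.0387), and Cdk1, the mitotic kinase, by 1.27 ± 0.35 (adjusted p = 0.0469). Without Her2/Neu+ sample 114 only Nusap1 passed, a count of 1, and with the runs of block numbers as a random block the count was 0. Nusap1 passed in 29, Birc5 in 18, Tpx2 in 15 and Cdk1 in 8 of 30 fits that each left out an array. In Her2/Neu+/IFNAR1-/- against IFNAR1-/- glands 0 of 17 passed in limma and 9 were higher at an unadjusted p under 0.05, against 13.5% of all genes. The median change of the list was 1.00 there. Over 16 alternatives other than leaving out 1 array it ran from -0.22 to 1.00, and in the averaged contrast from 0.42 to 0.98. Mki67 averaged -3.87 ± 1.30 (SD) in Her2/Neu+/IFNAR1-/-, -3.47 ± 1.61 in Her2/Neu+, -3.75 ± 1.41 in IFNAR1-/- and -3.81 ± 1.52 in WT glands, with some oncogene samples at the lower limit of -6.

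**Figure D4:**
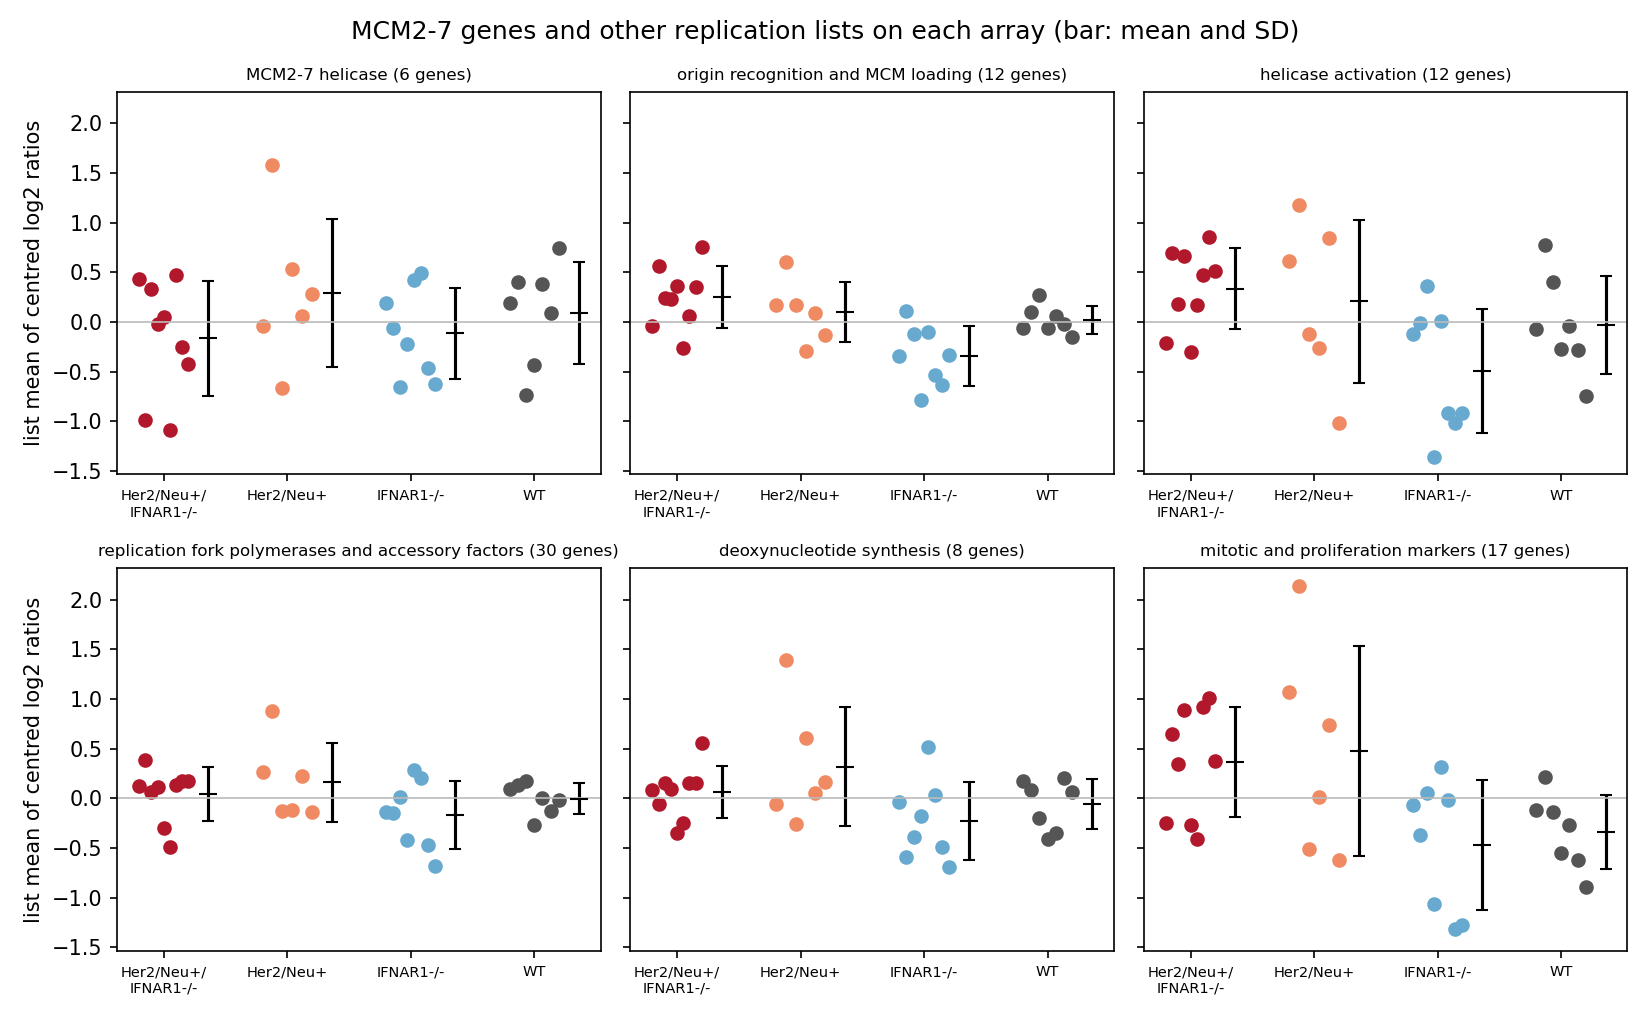
Mean of the log2 ratios of each list, after centring each gene on its mean over the 30 arrays (vertical axis), with 1 point per array in the 4 groups and the mean and SD of the group beside them. The MCM genes have means of -0.17 in Her2/Neu+/IFNAR1-/-, 0.29 in Her2/Neu+, -0.11 in IFNAR1-/- and 0.09 in WT glands, while the mitotic markers have 0.36, 0.47, -0.47 and -0.34, and Her2/Neu+ sample 114 is the highest mitotic point at 2.14.

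Some markers of cell types were also called with the oncogene. In the averaged contrast 1.71% of all genes were called up, and 99 of 11463 were called down. In the averaged contrast 1 of 8 measured luminal epithelial markers rose (Epcam, 2.10 ± 0.55, limma adjusted p = 0.0388), and 2 of 5 basal markers fell, Krt14 by 1.67 (fitted without 6 samples that lack a value) and Acta2 by 0.86 on the log2 scale (limma adjusted p = 0.0441 and 0.0416). Members of both lists also lay the other way without passing, with Krt19, a luminal keratin, at -1.42 ± 0.43 (adjusted p = 0.0759) and Trp63, a basal transcription factor, at 0.59 ± 0.21 (adjusted p = 0.130). Of 3 measured milk protein genes Lalba rose, by 5.25 ± 0.38 (limma adjusted p = 9.0e-08), with most values in oncogene glands at the limit of 6. The mean of the milk list was 0.75 ± 0.34 in Her2/Neu+/IFNAR1-/- and 0.50 ± 0.94 in Her2/Neu+ glands (SD). It was -0.50 ± 0.87 in IFNAR1-/- and -0.68 ± 0.75 in WT glands. At an unadjusted limma p under 0.05, 2 of the 3 were higher and 1 was lower. Of 7 macrophage markers Csf1r fell by 0.75 on the log2 scale (limma adjusted p = 0.0377), while 4 of the 7 had changes above 0. The mean of the luminal list ran from -0.65 to 0.90 in Her2/Neu+/IFNAR1-/- and -1.86 to 0.87 in Her2/Neu+, against -1.02 to 0.98 in IFNAR1-/- and -1.03 to 0.38 in WT glands. The mean of the basal list ran from -1.70 to 0.55 in Her2/Neu+/IFNAR1-/- and -2.48 to 0.44 in Her2/Neu+, against -1.26 to 0.93 in IFNAR1-/- and -0.74 to 0.77 in WT glands. Her2/Neu+ sample 114 had the lowest mean of both the luminal and the basal list among all arrays. The marker calls were not examined without that sample or with the runs of block numbers as a block. The part of these markers in the Mcm2 result was not tested. Without the muscle-rich IFNAR1-/- samples 41, 42 and 44 the averaged Mcm2 rise was 1.45 ± 0.36 (adjusted p = 0.0333), and the change in Her2/Neu+/IFNAR1-/- against IFNAR1-/- was 1.89 ± 0.50 and did not pass (adjusted p = 0.0624).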

How the data were processed

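Total RNA was labelled with Cy5 and the universal reference RNA with Cy3, per the labels, on 2-colour Agilent arrays. The authors deposited log2 ratios for 20896 probes. Base 2 was inferred because values stop at ±6, which is then 64-fold, and gland over reference follows from the dyes. Scanner settings, background correction and normalization are not given in the sources used here. Array medians ran from -0.118 to -0.00308, and no further scaling was applied. Of the probes 17376 had 1 gene symbol and 3520 none, and 17202 were matched to RefSeq by gene ID.

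Probes were kept where every group had values on 50% or more of its arrays, and averaged per gene. The model was fitted in limma 3.58.1 in R 4.3.3 (lmFit and eBayes, 1 fit over 30 arrays, two-sided), with Benjamini-Hochberg adjustment over the 11463 genes and a threshold of 0.05. Correlations were tested by two-sided permutation in Python 3.11.15. The fit was run on simulated arrays with known changes and independent normal noise for each gene. These held no run effects, repeated values or outlying arrays, so they say nothing about the effect of such features.

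The named genes are the MCM genes, Ifnar1, Erbb2, up to 4 called members of each list with the smallest p (where none passed, the member with the smallest p), and the 8 genes most like the MCM mean. Mki67, Cdt1, Cdk1 and Nusap1 (for their correlation) and the cell type markers, Krt18, Krt8, Adipoq, Krt19 and Trp63 among them, were named outside this rule, after their values were seen. The members and lists were chosen with earlier results of these data known. Alternatives were quantile normalization, median centring, filters, probe choice, fits of the compared pair alone, weights for arrays, a trended variance, block numbers, repeated values, and leaving out arrays. The fixed block, the repeated values without a filter, the single Mcm3 probes, the correlations without Her2/Neu+ sample 114 and the alternatives for the lists were added after seeing the data.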

Additional observations from a re-analysis of the deposited data

Results flagged for a closer look

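Of the 24 sets of values of an MCM gene in a group, 1 held a sample far from the others. Mcm7 in IFNAR1-/- sample 42 was -4.21, the lowest of 8, with the nearest other sample at -2.36, a gap of 0.642 of the whole range where 0.526 is the critical value. The same sample also had the lowest Mcm3 and Mcm4 of its group, and it is 1 of the 3 IFNAR1-/- samples with high skeletal muscle genes. Chance flags about 1 in 20 such sets.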

How the results depend on the processing

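The rise of Mcm2 kept its direction under every alternative that gave it a value, but not its call. No paired analysis was possible because the groups share no sample numbers. The count of MCM genes past the threshold in Her2/Neu+/IFNAR1-/- against IFNAR1-/- glands was 1, and it was 0 with quantile normalization (Mcm2 1.34, limma adjusted p = 0.102), with a fit of the compared pair alone (adjusted p = 0.0697), with the block number as a covariate (1.76, 0.0815), with runs as a random block, with repeated values set to missing, with or without the filter, and without IFNAR1-/- samples 41, 42 and 44. On leaving out each array it was 0 to 1. In the averaged oncogene contrast it was 1, and 0 with runs as a random or a fixed block and with repeated values missing, with or without the filter. With repeated values missing and the filter kept, Mcm2 could not be fitted. Quantile normalization moved the median of all genes in Her2/Neu+/IFNAR1-/- against IFNAR1-/- glands to 0.04 and that of the MCM genes to -0.64.

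No change that turned sign was past the threshold in either fit. With quantile normalization these were, in log2 units, Mcm6 0.11 in Her2/Neu+ against WT, Mcm4 0.078 in IFNAR1-/- against WT, and Mcm3 -0.036 and Mcm4 -0.053 in the averaged oncogene contrast. With array weights they were Mcm3 -0.018 in Her2/Neu+ against WT, Mcm6 -0.066 in IFNAR1-/- against WT, Mcm2 0.18 in Her2/Neu+/IFNAR1-/- against Her2/Neu+ and Mcm3 -0.093 in the averaged oncogene contrast. Mcm6 under averaged receptor loss was 0.030 with the block number and 0.11 without IFNAR1-/- samples 41, 42 and 44, where Mcm7 in IFNAR1-/- against WT was 0.058. Mcm6 in IFNAR1-/- against WT was -0.017 with runs as a random block. Mcm2 in Her2/Neu+/IFNAR1-/- against Her2/Neu+ was 0.11 with repeated values missing and no filter. With runs as a fixed block all 6 genes were above 0 in the averaged oncogene contrast, with Mcm5, Mcm6 and Mcm7 at 0.11, 0.35 and 0.089 and Mcm3 and Mcm4 at 0.74 and 0.65, against 0.03 and 0.04 without it, and Mcm4, Mcm5 and Mcm7 were 0.11, 0.17 and 0.018 under averaged receptor loss. The fixed-block sizes come only from the runs that hold more than 1 group, Her2/Neu+ sample 114 among them. Mcm3 from 1 of its probes was -0.033 in the averaged oncogene contrast. The r of Mcm2 with Mcm7 was -0.030 without subtracting group means and -0.061 without Her2/Neu+ sample 114, and that of Mcm2 with Mcm4 was -0.052 without that sample. The cause was not tested.

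Leaving out each array gave these ranges where a sign turned. In Her2/Neu+ against WT they were -0.11 to 0.47 for Mcm3, -0.20 to 0.54 for Mcm4, -0.23 to 0.19 for Mcm5, -0.44 to 0.017 for Mcm6 and -0.54 to 0.10 for Mcm7. In Her2/Neu+/IFNAR1-/- against Her2/Neu+ they were -0.40 to 0.34 for Mcm2 and -0.35 to 0.057 for Mcm6, and in Her2/Neu+/IFNAR1-/- against IFNAR1-/- -0.33 to 0.032 for Mcm4. In IFNAR1-/- against WT they were -0.37 to 0.021 for Mcm4, -0.24 to 0.20 for Mcm6 and -0.37 to 0.042 for Mcm7. In the averaged oncogene contrast they were -0.16 to 0.13 for Mcm3 and -0.18 to 0.19 for Mcm4, under averaged receptor loss -0.21 to 0.0016 for Mcm5 and -0.19 to 0.036 for Mcm6, and for the interaction -0.70 to 0.041 for Mcm4 and -0.36 to 0.10 for Mcm6. The absence of intensities leaves signal over background unknown.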
